A study of Mus musculus with 11 samples.

Results

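The genes described here are 36 genes of glycolysis and of the cellular response to low oxygen, chosen by symbol: 18 enzymes of the path from glucose to lactate, 4 regulators of its flux, 5 genes of oxygen sensing and 9 genes known to be induced by hypoxia. Of these, 34 were measured and 30 were bright enough to be tested, out of 19505 genes measured and 12143 tested in all. Eno1, an enolase, and Gpi1, glucose phosphate isomerase, were not analysed here. Ldhb, Eno2, Egln3 and Ddit4 were too dim to be tested.

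Affymetrix arrays, 11 in all, measured the RNA of alveolar macrophages, which clear the surface of the lung. The mice were C57BL/6J females obtained when 6 weeks old, and each was injected 5 times in 10 days with either CpG 1826, an oligonucleotide ligand of the DNA sensor Tlr9 used to model macrophage activation syndrome (MAS), or PBS. Lavage followed on day 30 in the resolution group (CpG, n = 4) and on day 10 in both the acute group (CpG, n = 3) and the control group (PBS, n = 4). The cells were purified from lavage fluid by adherence only, and the titles call the samples of a group biological replicates. With no PBS group lavaged on day 30, the CpG course and the day of lavage cannot be told apart in resolution versus control. In resolution versus acute the course was the same. There, the time since CpG cannot be told apart from the later day of lavage and the greater age of the mice. In such bulk RNA, fewer cells of a type and less RNA per cell cannot be told apart either.

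Glycolysis turns glucose into pyruvate in the cytosol, and lactate dehydrogenase turns pyruvate into lactate when it is not sent to the mitochondria. The factor HIF-1 raises the transcription of most of these enzymes. Its alpha subunit, encoded by Hif1a, is hydroxylated by the Egln prolyl hydroxylases when oxygen is plentiful and is then destroyed, so that much of its control lies in the protein and not in the mRNA. In macrophages, signals of inflammation can also raise Hif1a and glycolysis. HIF binds DNA at the hypoxia response element, whose core is ACGTG or GCGTG.

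To show where such cores lie in members that changed, the promoters of the 3 members with the smallest adjusted p among those lower in the resolution arrays (Hif1a, Pgam1, Ldha) and of Egln1 and Pfkfb4, which were higher there, are given from RefSeq (GRCm38.p6). Each runs 5′ to 3′ over 250 bases before and 50 bases after the most upstream start in the list of promoters used. For Hif1a, Ldha and Pfkfb4 the gene itself begins further upstream, at 73901324, 46842274 and 108988272, and that start is not shown. Capitals mark ACGTG and GCGTG read on either strand, so the palindrome CACGTG holds ACGTG on both strands and counts as a match on each.
Hif1a, chr12:73907617-73907916, plus strand: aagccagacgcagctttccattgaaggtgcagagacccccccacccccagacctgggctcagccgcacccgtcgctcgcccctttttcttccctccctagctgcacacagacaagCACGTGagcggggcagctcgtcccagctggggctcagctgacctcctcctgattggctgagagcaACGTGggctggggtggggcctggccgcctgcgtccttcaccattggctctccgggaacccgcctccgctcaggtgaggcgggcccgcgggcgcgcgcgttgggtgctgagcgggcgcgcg
Pgam1, chr19:41911621-41911920, plus strand: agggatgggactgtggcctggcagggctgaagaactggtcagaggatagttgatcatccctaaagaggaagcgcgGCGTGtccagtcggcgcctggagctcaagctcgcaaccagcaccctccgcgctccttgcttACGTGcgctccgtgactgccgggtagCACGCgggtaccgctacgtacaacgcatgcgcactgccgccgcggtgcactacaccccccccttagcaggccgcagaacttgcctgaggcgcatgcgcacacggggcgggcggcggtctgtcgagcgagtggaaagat
Ldha, chr7:46845554-46845853, plus strand: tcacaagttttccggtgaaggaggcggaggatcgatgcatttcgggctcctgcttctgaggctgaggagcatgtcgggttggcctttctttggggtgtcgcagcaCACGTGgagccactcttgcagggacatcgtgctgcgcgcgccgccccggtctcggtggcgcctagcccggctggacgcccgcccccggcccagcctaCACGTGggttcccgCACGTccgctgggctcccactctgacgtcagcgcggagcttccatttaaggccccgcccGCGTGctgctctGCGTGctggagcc
Egln1, chr8:124949205-124949504, minus strand: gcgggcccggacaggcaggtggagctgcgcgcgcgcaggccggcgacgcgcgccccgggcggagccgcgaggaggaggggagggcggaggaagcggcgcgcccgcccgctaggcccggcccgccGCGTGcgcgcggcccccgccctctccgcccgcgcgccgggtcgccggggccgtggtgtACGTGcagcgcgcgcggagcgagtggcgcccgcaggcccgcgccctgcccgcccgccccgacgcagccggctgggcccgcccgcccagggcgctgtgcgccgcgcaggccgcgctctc
Pfkfb4, chr9:108991652-108991951, plus strand: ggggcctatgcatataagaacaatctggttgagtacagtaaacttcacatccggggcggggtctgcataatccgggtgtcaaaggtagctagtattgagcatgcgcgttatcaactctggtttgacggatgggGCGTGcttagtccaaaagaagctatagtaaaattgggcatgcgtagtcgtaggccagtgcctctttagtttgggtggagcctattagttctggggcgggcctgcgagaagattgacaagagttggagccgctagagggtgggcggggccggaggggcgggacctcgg
The Ldha promoter held 5 matches to ACGTG, with 2 palindromes among them, and 2 matches to GCGTG. Hif1a had 3 matches to ACGTG, with 1 palindrome. Pgam1 had 1 match to ACGTG and 2 to GCGTG, Egln1 had 1 of each, and Pfkfb4 had 1 match to GCGTG. Of the members called lower against control but not shown, Pkm had 0 matches at its most upstream start and Ankrd37 had 2 to each core. Promoters were matched by symbol for 31 of the 34 measured members, and Ndrg1, Epas1 and Bnip3l are named only. Over all starts listed for a gene, 23 of these 31 genes (74.2%) held ACGTG, against 27.9% of the 9901 tested genes in the table and 21.8% of all 27025 genes in it. Either core was held by 93.5% of the members, against 62.7% of the tested genes, and the median GC content was 61.7% in promoters of members and 59.3% in those of tested genes. A match is a description of letters and not a binding site, and many members were chosen as known HIF targets.

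All levels below are log2(intensity + 1) of 1 transcript cluster per gene, and differences are on the same scale. Levels are compared between arrays for 1 gene at a time. The arrays had a median intensity of 51.4 to 57.0 and a background of 6.12 to 6.24, the 90th percentile of probe sets that match no mouse sequence. Medians were 52.55 to 57.0 in resolution, 52.05 to 53.86 in acute and 51.39 to 56.81 in control arrays. The split of all calls by direction changed when the arrays were set to a common median, as given at the end. Of the 34 members 24 lay above background on all 11 arrays, 3 (Pfkfb4, Pdk1 and P4ha2) on some and 7 (Hk1, Pfkm, Eno2, Ldhb, Egln3, Ankrd37 and Ddit4) on none. Siglecf, a lectin that marks alveolar macrophages, stood at 14.51 to 15.33 on all arrays, and 14 of the 16 alveolar macrophage markers looked for were measured and all 14 of these were tested. Some of these markers differed between groups, as given below. Control replicate 4 stood apart on the third principal component, at -34.9 against -7.26 to 9.22 on the other arrays, and had the highest level of the neutrophil gene S100a8, 12.16 against 8.07 to 9.81 elsewhere. Gapdh, Pgam1, Ldha, Pkm and Tpi1 have near-identical processed pseudogenes in the genome, so their probe sets may also read related transcripts.

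**Figure D1:**
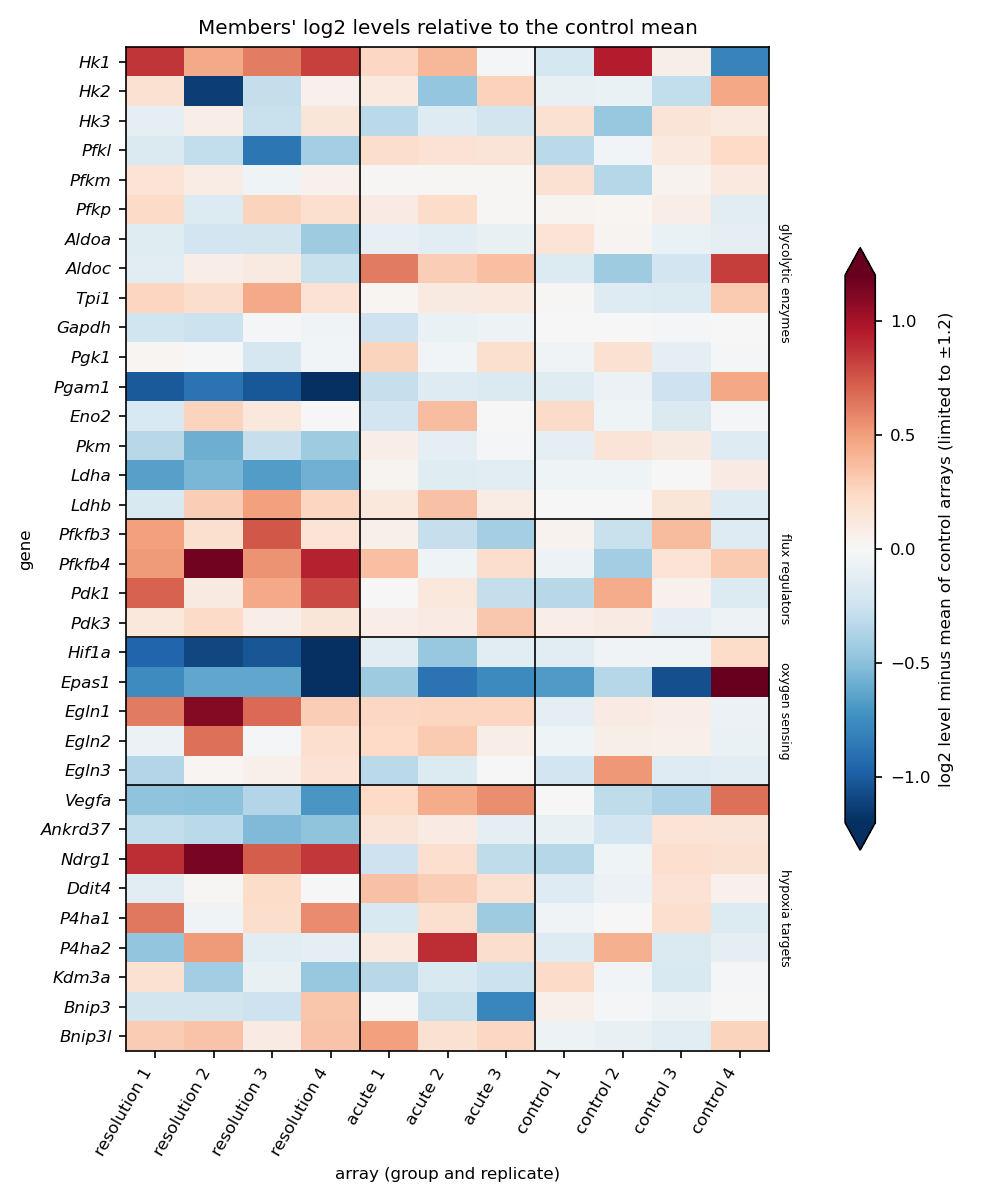
Level of each of the 34 measured genes (rows, grouped by role) on each of the 11 arrays (columns), as the difference in log2 level from the mean of the control arrays, with the colour scale limited to ±1.2. Hif1a, Pgam1 and Ldha are blue on all 4 resolution arrays and Ndrg1 is red on all 4, while Epas1 is dark red on control replicate 4 alone.

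Resolution versus control asks what differed in the macrophages on day 30 after the CpG course. The mRNA of Hif1a fell, and so did those of 3 enzymes of the later steps of glycolysis, Pgam1, Pkm and Ldha. The mRNAs of Egln1, the main hydroxylase acting on HIF-1 alpha, of Pfkfb4, a regulator of phosphofructokinase, and of Ndrg1, a stress-induced gene, rose. Of the 30 tested members 3 passed as higher, 5 as lower and 22 not at all, so that 26.7% were called against a background of 18.6% of all genes tested. By direction, 9.6% of all genes tested rose and 9% fell. The median difference was -0.05 over the members and 0.00 over all genes tested, and 17 of the 30 differences were negative. The arrays of the groups did not overlap for 10 of the 30 members, where 22.7% of all genes tested did not.

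Hif1a had levels of 12.94, 12.80, 12.87 and 12.65 on the resolution arrays, 13.76, 13.45 and 13.78 on the acute arrays and 13.77, 13.85, 13.85 and 14.12 on the control arrays. Every resolution array lay below every array of the other groups. It fell by 1.08 ± 0.12 (SE) against control, or 2.12-fold (limma, adjusted p = 7.54e-05). Epas1, which encodes the alpha subunit of HIF-2, stood at 7.79, 7.92, 7.93 and 7.06 in resolution, 8.12, 7.66 and 7.78 in acute and 7.86, 8.21, 7.49 and 10.62 in control arrays. One control array was far above all others, and the difference of -0.87 ± 0.52 (SE, adjusted p = 0.287) was -0.18 without that array, control replicate 4 (adjusted p = 0.664).

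Among the hydroxylases, Egln1 stood at 9.93, 10.41, 9.99 and 9.61 in resolution, 9.56, 9.57 and 9.57 in acute and 9.21, 9.41, 9.39 and 9.24 in control arrays. It was higher on every resolution array than on any control array, by 0.67 ± 0.15 (SE), or 1.60-fold (adjusted p = 0.00734). Egln2, a second hydroxylase, had levels of 9.70 to 10.43 in resolution and 9.70 to 9.84 in control arrays, with overlap and no call (adjusted p = 0.430). Egln3 lay below background throughout.

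Of the 14 tested enzymes 0 rose, 3 fell and 11 did not pass, 21.4% called where 18.6% of all genes were, with a median difference of -0.09. Pgam1, the mutase that moves the phosphate of phosphoglycerate, stood at 13.71, 13.83, 13.70 and 13.48 in resolution, 14.44, 14.56 and 14.55 in acute and 14.57, 14.64, 14.47 and 15.18 in control arrays. The resolution arrays did not overlap with the others, and Pgam1 fell by 1.04 ± 0.15 (SE), or 2.05-fold (adjusted p = 0.000472). Control replicate 4 was again the highest, and without it the difference was -0.88.

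Ldha, the muscle-type subunit of lactate dehydrogenase, stood at 12.07, 12.17, 12.05 and 12.14 in resolution, 12.75, 12.57 and 12.59 in acute and 12.67, 12.66, 12.72 and 12.82 in control arrays. The spread within groups was small, and Ldha fell 1.53-fold, by 0.61 ± 0.10 (SE, adjusted p = 0.000965). Pkm, pyruvate kinase of most tissues outside liver and red cells, stood at 12.43, 12.17, 12.48 and 12.33 in resolution, 12.84, 12.65 and 12.73 in acute and 12.65, 12.91, 12.86 and 12.60 in control arrays. It was lower on all resolution arrays and fell 1.32-fold, by 0.40 ± 0.12 (SE, adjusted p = 0.0302). Leaving out control replicate 2 or 3 or resolution replicate 2 or 4 ended this call (adjusted p up to 0.0853), as did a fit of only these groups (0.0513) or with the replicate number as a block (0.0558).

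The other enzymes gave no call against control. Hk2, the inducible hexokinase, had levels of 10.83 to 12.14 in resolution and 11.66 to 12.42 in control arrays, and Hk3, a hexokinase of myeloid cells, 7.82 to 8.23 against 7.63 to 8.27. For Pfkl, the liver-type phosphofructokinase, the values were 7.91, 7.80, 7.23 and 7.69 in resolution, 8.31, 8.27 and 8.24 in acute and 7.77, 8.06, 8.21 and 8.33 in control arrays (difference from control -0.43 ± 0.16 SE, adjusted p = 0.0810, and 0.042 without control replicate 1). Pfkp, another phosphofructokinase, kept within 14.21 to 14.64 in resolution and 14.24 to 14.45 in control arrays. None of these ranges separated resolution from control.

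The aldolase Aldoa stood at 14.75 to 15.03 in resolution and 15.06 to 15.34 in control arrays, lower on every resolution array without passing the test (difference -0.25 ± 0.11 SE, adjusted p = 0.127). Tpi1, triose phosphate isomerase, had 13.75 to 14.04 in resolution and 13.42 to 13.90 in control arrays (adjusted p = 0.165). Only control replicate 4 reached the resolution arrays, and without it Tpi1 passed as higher. Gapdh, often taken as a reference gene, stood at 15.60, 15.58, 15.82 and 15.80 in resolution, 15.59, 15.75 and 15.77 in acute and 15.84, 15.84, 15.82 and 15.84 in control arrays. The control arrays were tightly grouped at the top, and neither the acute nor the resolution arrays overlapped with them, but the difference of resolution from control did not pass (adjusted p = 0.404). Pgk1, the kinase that makes ATP from bisphosphoglycerate, ranged from 7.20 to 7.42 in resolution and from 7.28 to 7.58 in control arrays.

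**Figure D2:**
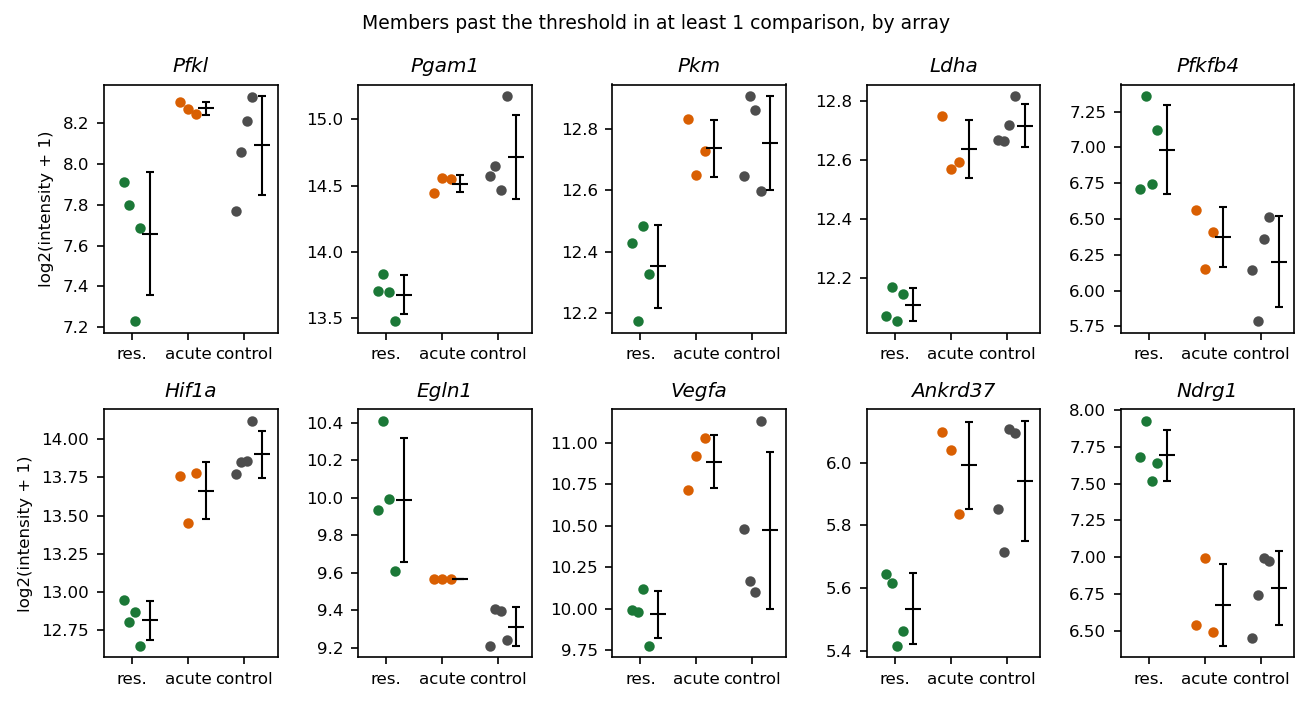
Log2(intensity + 1) of the 10 genes past the threshold in at least 1 comparison, with 1 point per array for the resolution (res., n = 4), acute (n = 3) and control (n = 4) groups, and a bar for the mean ± SD beside them; each panel has its own axis, which does not start at 0. Hif1a, Pgam1, Pkm and Ldha are lowest and Ndrg1 and Pfkfb4 highest on the 4 resolution arrays.

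Of the 4 flux regulators 1 rose and 3 did not pass, 25% called where 18.6% of all genes were. All 4 differences from control were positive, with a median of 0.46. An unadjusted p under 0.05 was found for 3 of them, where 31.3% of all genes tested had one. Pfkfb4, which makes and breaks down the fructose bisphosphate that activates phosphofructokinase, stood at 6.71, 7.36, 6.74 and 7.12 in resolution, 6.56, 6.15 and 6.41 in acute and 6.14, 5.78, 6.36 and 6.52 in control arrays. It lay above background on all 4 resolution arrays and on 2 of the 4 control arrays. Pfkfb4 rose at least 1.72-fold, with a measured difference of 0.78 ± 0.19 (SE, adjusted p = 0.0115). Its paralogue Pfkfb3, known for its induction in inflamed cells, stood at 8.67, 8.37, 8.92 and 8.34 in resolution, 8.23, 7.90 and 7.77 in acute and 8.22, 7.91, 8.56 and 8.02 in control arrays. Resolution overlapped with control through control replicate 3 (difference 0.40 ± 0.18 SE, adjusted p = 0.142).

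Pdk1, a kinase that blocks pyruvate dehydrogenase and a known HIF target, stood at 7.13, 6.53, 6.89 and 7.22 in resolution, 6.42, 6.56 and 6.14 in acute and 6.10, 6.87, 6.48 and 6.26 in control arrays. The difference from control was 0.52 ± 0.19 (SE, adjusted p = 0.0801), and it passed with array weights and without control replicate 2 or resolution replicate 2, with adjusted p down to 0.029. Pdk3, a related kinase, ranged from 10.60 to 10.75 in resolution and from 10.41 to 10.63 in control arrays.

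The hypoxia-induced genes did not move together, with 1 of 8 tested higher, 1 lower and 6 not past the threshold. That is 25% called where 18.6% of all genes were, with a median difference of -0.07. Ndrg1, whose mRNA accumulates under hypoxia and other stresses, stood at 7.68, 7.93, 7.52 and 7.64 in resolution, 6.54, 6.99 and 6.49 in acute and 6.45, 6.74, 7.00 and 6.98 in control arrays. Every resolution array exceeded every other array, and Ndrg1 rose 1.87-fold against control, by 0.90 ± 0.16 (SE, adjusted p = 0.00182). Ankrd37, an ankyrin repeat gene, stood at 5.64, 5.62, 5.41 and 5.46 in resolution, 6.10, 6.04 and 5.84 in acute and 5.85, 5.71, 6.11 and 6.10 in control arrays. These signals lay below background on all 11 arrays, so no fold is given; the level fell by 0.41 ± 0.12 (SE, adjusted p = 0.0376) with no overlap of the groups. Leaving out control replicate 1, 3 or 4 or resolution replicate 3 or 4 ended the Ankrd37 call (adjusted p up to 0.102), as did a pseudocount of 16, no filter, a fit of only these groups and the replicate block (0.0764).

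Vegfa, the vascular growth factor, stood at 9.99, 9.98, 10.12 and 9.77 in resolution, 10.71, 10.92 and 11.03 in acute and 10.48, 10.17, 10.10 and 11.13 in control arrays. The resolution arrays were low and the control arrays widely spread (difference -0.51 ± 0.20 SE, adjusted p = 0.0979), and the difference was -0.28 without control replicate 4. Bnip3l, a receptor for the removal of mitochondria, stood at 14.40, 14.44, 14.19 and 14.43 in resolution, 14.58, 14.27 and 14.34 in acute and 14.03, 14.01, 13.97 and 14.36 in control arrays, with a difference of 0.27 ± 0.12 (SE, adjusted p = 0.153). Control replicate 4 reached into the range of the CpG-treated mice. Its relative Bnip3 had 6.85 to 7.43 in resolution and 7.04 to 7.16 in control arrays.

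The histone demethylase gene Kdm3a ranged from 9.02 to 9.67 in resolution and from 9.29 to 9.70 in control arrays. P4ha1, a catalytic subunit of collagen prolyl hydroxylase, ranged from 8.78 to 9.46 against 8.65 to 9.02. Neither separated the groups, and neither passed the test (adjusted p = 0.426 and 0.204). P4ha2, Hk1 and Pfkm were not above background in resolution or control arrays. Hk1, the hexokinase of most tissues, had a difference of 0.69 ± 0.28 (SE, adjusted p = 0.113) among these dim values, and passed without control replicate 2 (0.006).

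Markers of other cells differed between the same groups. For the 9 measured genes of monocytes and interstitial macrophages, the mean log2 level was 7.17 to 7.34 in resolution, 7.72 to 7.98 in acute and 6.88 to 7.10 in control arrays, while the log2 of their summed intensity was 13.45 to 13.78, 14.41 to 14.87 and 13.88 to 14.39. Mean and sum thus put resolution on opposite sides of control. Of these markers 2 of 7 tested passed as higher and 1 as lower in resolution versus control. That was 42.9% called where 18.6% of all genes tested were, with a median difference of 0.51 over these markers. Those that rose were C1qa, by 1.51, and Ccr2, by 0.64 to 0.95 when 1 array was left out. C1qa passed in all 11 fits with an array left out, and Ccr2 passed in 7 of them. Ccr2 lay below background on every control array, at 5.32 to 5.92. Cd14, a coreceptor for bacterial lipopolysaccharide, fell by 1.01 ± 0.17 (SE, adjusted p = 0.00112). In acute versus control all 7 tested markers of this list had positive differences, and 1 passed (14.3% called where 0.239% of all genes tested were). Among 5 tested neutrophil markers Csf3r, the receptor of a granulocyte growth factor, rose by 0.68 ± 0.15 (SE, adjusted p = 0.00659) and Ltf, lactoferrin, fell by 1.06 ± 0.26 (SE, adjusted p = 0.0138). Cd3d, part of the T cell receptor complex, was the 1 of 4 tested T and NK cell markers that passed, and it fell by 0.72 ± 0.16 (SE, adjusted p = 0.00721). Csf3r, Ltf and Cd3d also passed in the same directions against acute. Of the neutrophil markers 40% and of the T and NK cell markers 25% were called against control, where 18.6% of all genes tested were. Cd3d lay below background on every resolution and control array, at 4.85 to 5.22 and 5.53 to 6.01. Ltf lay below it on every resolution array, at 4.40 to 5.01. Of the control arrays only replicate 4 exceeded it for Ltf, at 6.32 against 5.41 to 5.74 on the others. Of the alveolar macrophage markers 3 of 14 passed as higher (Cidec, Krt79 and Pparg) and 3 as lower (Fabp4, Fabp5 and Atp6v0d2) against control. That was 42.9% called where 18.6% of all genes tested were. Cidec stood at 11.48 to 11.69 in resolution and 9.79 to 10.68 in control arrays, and Fabp4 at 15.17 to 15.68 and 16.55 to 16.90. The list had a mean log2 level of 14.71 to 14.81 in resolution and 14.73 to 14.79 in control arrays. Its log2 sum was 19.15 to 19.18 against 19.33 to 19.47. The part of these cells in the differences of the glycolytic and hypoxia genes was not tested.

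Resolution versus acute compares the same injections at both days of lavage. Of the 30 tested members 1 passed as higher, 6 as lower and 23 not at all, 23.3% called against a background of 14.5% of all genes tested (7.77% higher and 6.69% lower). An unadjusted p under 0.05 was found for 13 members, where 28.8% of all genes tested had one. Ndrg1 rose 2.02-fold (1.02 ± 0.17 SE, adjusted p = 0.00185). Hif1a fell by 0.85 ± 0.13 (SE, adjusted p = 0.00121), Pgam1 fell by 0.84 ± 0.16 (SE, adjusted p = 0.00470) and Ldha fell by 0.53 ± 0.11 (SE, adjusted p = 0.00543). These are the 4 members that passed against both other groups under all 20 alternative settings, and both comparisons share the resolution arrays.

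Vegfa and Pfkl passed in this comparison and not against control. Vegfa fell 1.89-fold, by 0.92 ± 0.21 (SE, adjusted p = 0.0126), and Pfkl fell 1.53-fold, by 0.62 ± 0.17 (SE, adjusted p = 0.0335). No resolution array reached the lowest acute array for either gene. The Pfkl call ended without any 1 of the 3 acute arrays or without resolution replicates 3 or 4 (adjusted p up to 0.0996) and with the replicate block (0.0554), and the Vegfa call ended without acute replicate 3 (0.0523). Ankrd37 fell by 0.46 ± 0.13 (SE, adjusted p = 0.0391), again below background on every array, and this call ended without control replicate 1, acute replicates 1 or 2, or resolution replicates 1, 3 or 4 (adjusted p up to 0.141), with a pseudocount of 16 (0.0532), with no filter (0.0544) and with the replicate block (0.0844).

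Several further members lay close to the threshold here. Pfkfb3 was 0.61 ± 0.19 (SE) higher with adjusted p = 0.0503, Pfkfb4 0.61 ± 0.20 (SE) higher with adjusted p = 0.0640, and Pkm had a difference of -0.39 ± 0.13 (SE) with adjusted p = 0.0608. The arrays did not overlap for any of these 3 genes. Pkm passed under 4 of the 20 alternative settings, with adjusted p down to 0.0338, and Pfkfb3 under 8, down to 0.0149. Over all members the arrays did not overlap for 15 of 30, where 26.3% of all genes tested did not.

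Transcripts of airway epithelium differed between the same groups. The epithelial marker list had 8 of 12 tested genes lower and 1 higher in resolution versus acute, 4 lower and 1 higher in resolution versus control, and 4 higher and 0 lower in acute versus control. In that order 75%, 41.7% and 33.3% of the list were called, where 14.5%, 18.6% and 0.239% of all genes tested were. The mean log2 level of the list was 7.74 to 8.16 in resolution, 9.23 to 9.71 in acute and 8.24 to 8.56 in control arrays. The log2 of its summed intensity was 14.67 to 14.86, 14.88 to 15.55 and 13.98 to 14.62, so that mean and sum put resolution on opposite sides of control. Scgb3a2, a secretoglobin of airway cells, stood at 8.11 to 9.86 in resolution, 12.70 to 13.86 in acute and 10.11 to 11.92 in control arrays, while Krt19, a keratin on the same list chosen after its values were seen, was at 13.68 to 13.85, 11.46 to 12.01 and 11.68 to 12.28. These 2 genes moved in opposite directions. The part of epithelial RNA in the differences of Vegfa and the enzymes was not tested.

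Acute versus control asks what the CpG course had changed by its end. No glycolytic or hypoxia gene was called, where 0.239% of all genes tested were (0.189% higher and 0.0494% lower). In limma 0 of the 30 members passed, and 1 had an unadjusted p under 0.05 where 9.05% of all genes tested did, with differences from -0.69 to 0.43 and a median of 0.00, the same to 2 decimals as over all genes tested. The arrays did not overlap for 3 of the 30 members (Gapdh, Egln1 and Egln2), where 10.1% of all genes tested did not.

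The member with that unadjusted p was Bnip3l, at 0.31 ± 0.13 (SE) above control (adjusted p = 0.520). Alas2, which makes heme in developing red cells and was the only 1 of 5 red cell markers measured, stood at 15.15, 6.99 and 9.26 on the acute arrays and at 5.72, 6.07, 5.94 and 6.70 on the control arrays (adjusted p = 0.311). Acute replicate 1 was the highest acute array for both Alas2 and Bnip3l, and the part of red cell RNA in Bnip3l was not tested. For Hif1a the difference was -0.24 ± 0.13 (SE), with a 95% interval of -0.53 to 0.05. For Ldha the interval ran from -0.31 to 0.15, for Pgam1 from -0.55 to 0.15 and for Ndrg1 from -0.49 to 0.26. Vegfa was 0.42 ± 0.21 (SE) higher with an interval of -0.05 to 0.88. A p that misses the threshold does not show equal levels at such widths.

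Aldoc, an aldolase isoform, illustrated the weight of single arrays. It stood at 12.52, 12.19 and 12.26 in acute and at 11.73, 11.46, 11.66 and 12.72 in control arrays. The acute values exceeded 3 of the 4 control arrays, and control replicate 4 exceeded them all (adjusted p = 0.650). For Epas1 the difference of -0.69 ± 0.56 (SE) became -0.0013 without that same array.

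**Figure D3:**
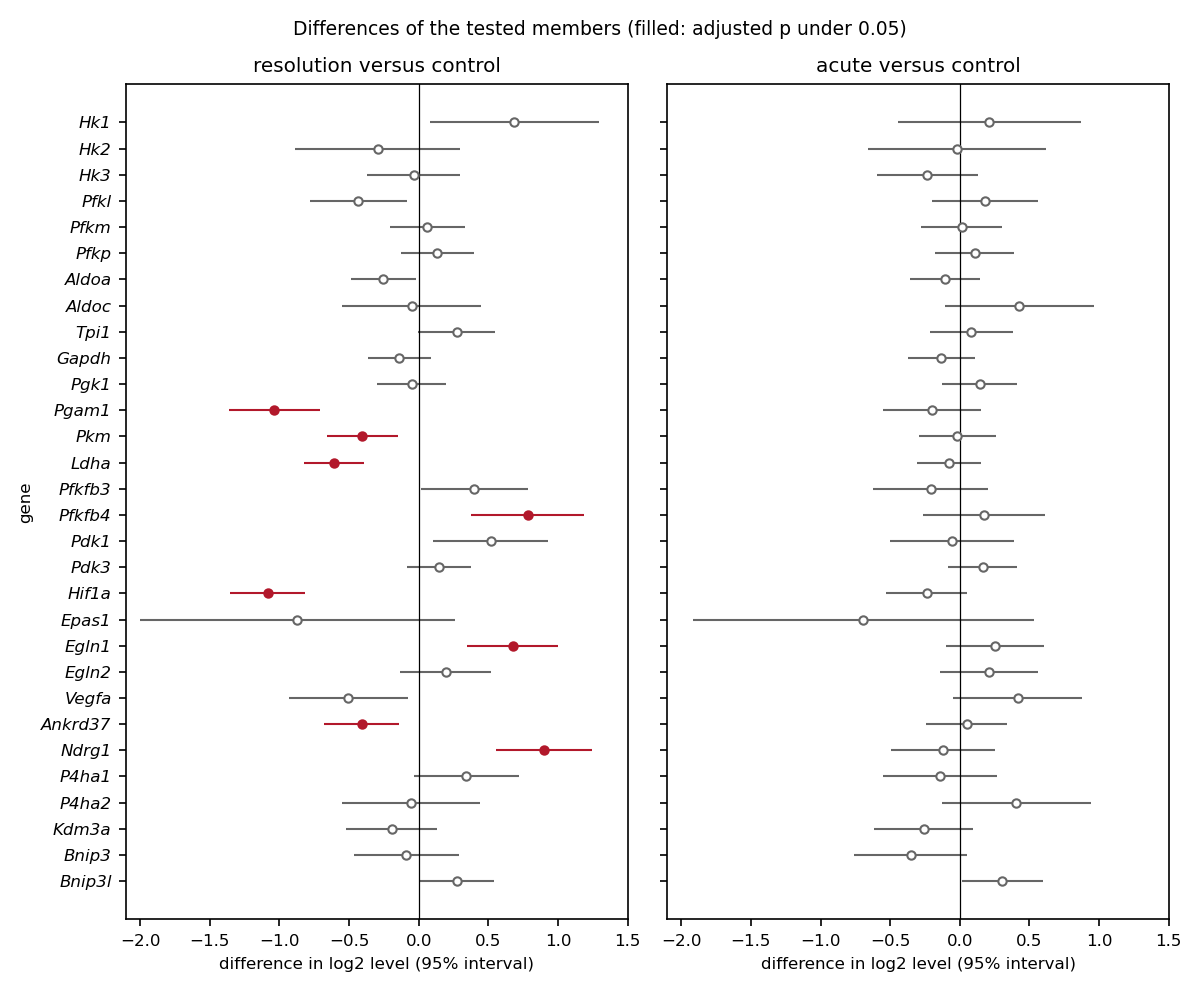
Difference in log2 level of the 30 tested genes for resolution versus control (left) and acute versus control (right), with 95% intervals from the moderated fit and filled red points for an adjusted p under 0.05. The left panel has 8 filled points and the right panel 0, and Epas1 has the widest interval in both.

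Further genes of glucose metabolism, taken from lists beyond the members, were examined in the same fit. None of the 64 tested genes of these 6 lists passed in acute versus control. An unadjusted p under 0.05 was found there for 8 of the 64, where 9.05% of all genes tested had one. For transport of glucose and lactate, 1 of 7 tested genes rose and 2 fell in resolution versus control, 42.9% called where 18.6% of all genes were, with a median difference of -0.15. Slc2a1, the glucose transporter GLUT1 and a HIF target, stood at 15.24, 15.35, 15.11 and 14.56 in resolution, 16.27, 15.88 and 15.83 in acute and 16.34, 16.47, 16.25 and 16.31 in control arrays. It fell 2.43-fold against control, by 1.28 ± 0.17 (SE, adjusted p = 0.000212), and 1.91-fold against acute (adjusted p = 0.00459).

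The carriers of monocarboxylates such as lactate and pyruvate differed in direction. Slc16a1 fell by 0.63 ± 0.14 (SE, adjusted p = 0.00680) against control, to 7.49 to 7.59 in resolution arrays against 7.81 to 8.36 in control arrays. Slc16a7 rose by 0.82 ± 0.19 (SE, adjusted p = 0.00878) against control and by 1.33 ± 0.20 (SE, adjusted p = 0.000874) against acute.

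At the entry of pyruvate into the mitochondria, 2 of 10 tested genes rose and 0 fell in resolution versus control, 20% against the same 18.6%, with a median difference of -0.14. Pdp1, the phosphatase that reactivates pyruvate dehydrogenase, stood at 8.79, 9.33, 9.19 and 9.35 in resolution, 7.32, 6.55 and 7.16 in acute and 7.61, 7.39, 7.51 and 7.78 in control arrays. This was a rise of 1.59 ± 0.18 (SE), or 3.01-fold, against control (adjusted p = 7.09e-05), and of 4.45-fold against acute. Pdk2, a kinase that acts against Pdp1, rose as well, by 1.06 ± 0.24 (SE, adjusted p = 0.00770) against control.

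In the pentose phosphate pathway, which branches off glycolysis to make NADPH, 1 of 6 tested genes fell and 0 rose (16.7% called, median difference -0.26). Pgd, phosphogluconate dehydrogenase, fell 2.52-fold against control, by 1.34 ± 0.15 (SE, adjusted p = 7.59e-05), with 10.96 to 11.23 in resolution, 11.59 to 12.26 in acute and 12.23 to 12.63 in control arrays. Of 8 tested genes of glycogen and gluconeogenesis 2 rose and 1 fell (37.5% called, median difference 0.24). Gys1, glycogen synthase, rose by 0.85 ± 0.18 (SE, adjusted p = 0.00658). Pgm1, phosphoglucomutase, rose by 0.53 ± 0.14 (SE, adjusted p = 0.0196), a call that ended without control replicates 1 or 2 or resolution replicate 1 (adjusted p up to 0.0578) and after quantile normalization (0.0822). Tigar, a phosphatase that lowers the activator of phosphofructokinase, fell by 0.83 ± 0.26 (SE, adjusted p = 0.0419), a call that ended without any 1 control array, without acute replicate 2 or without resolution replicates 1, 3 or 4 (adjusted p up to 0.119), with no filter (0.0551) and with the replicate block (0.0694).

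Of 11 further genes of the oxygen-sensing machinery 1 fell in resolution versus control (9.09% called), the coactivator gene Crebbp, by 0.55 ± 0.13 (SE, adjusted p = 0.00950). Arnt2 had the largest difference of this list, -1.60, without a call. It stood at 10.19 on control replicate 4 and at 4.79 to 5.78 on all other arrays, below background there. Among 22 further genes induced by hypoxia 1 passed as higher, 1 as lower and 20 not at all, 9.09% called where 18.6% of all genes were called. Angptl4, a lipase inhibitor that is a target of both HIF and PPAR factors, stood at 8.80, 9.27, 9.19 and 9.49 in resolution, 7.21, 8.32 and 7.81 in acute and 7.28, 7.10, 7.11 and 7.01 in control arrays. It rose 4.17-fold against control (2.06 ± 0.21 SE, adjusted p = 3.37e-05) and 2.65-fold against acute. Hilpda, a hypoxia-induced lipid droplet gene, fell by 0.68 ± 0.17 (SE, adjusted p = 0.0138) against control and by 0.90 ± 0.18 (SE, adjusted p = 0.00539) against acute. These lipid-related HIF targets thus differed in direction on the same arrays.

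**Figure D4:**
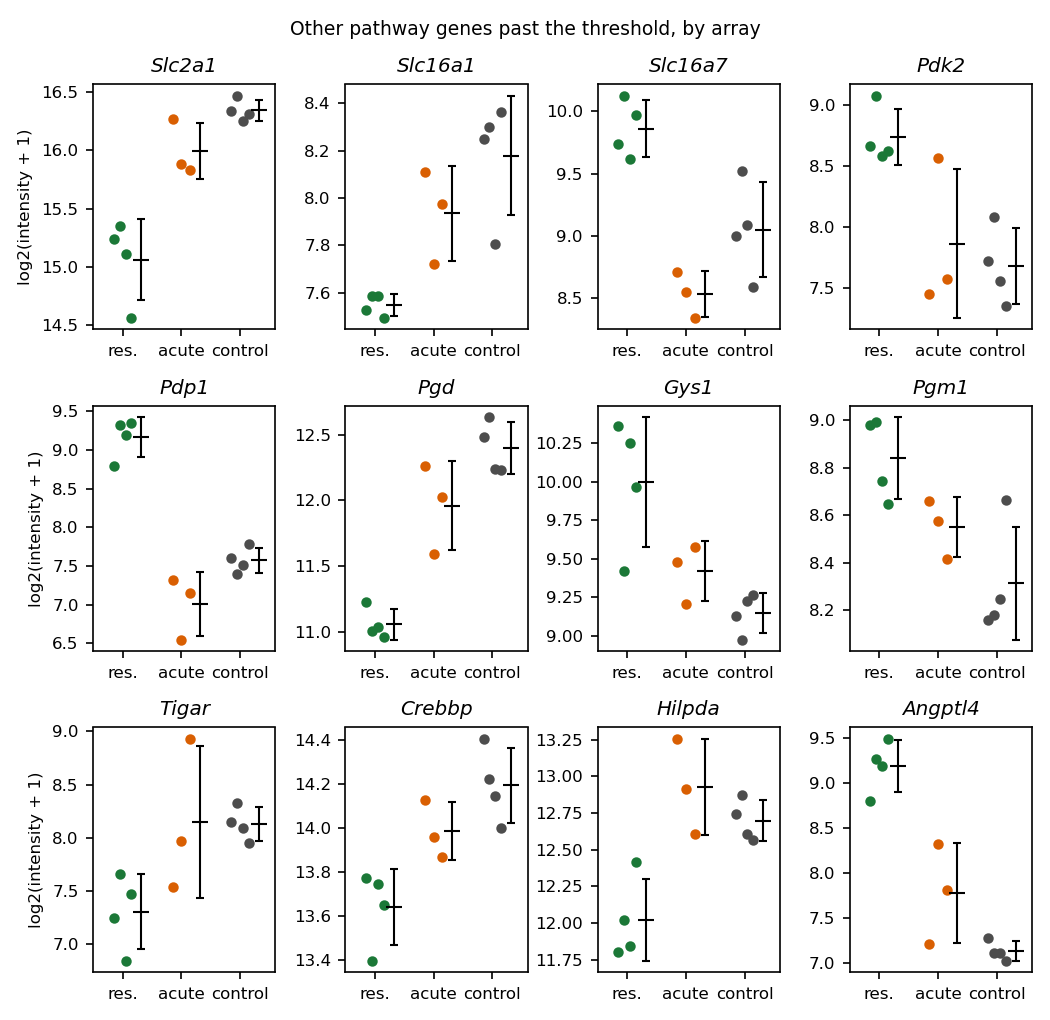
Log2(intensity + 1) by array of the 12 further pathway genes past the threshold in at least 1 comparison, for the resolution (res., n = 4), acute (n = 3) and control (n = 4) groups, with mean ± SD beside the points and an axis of its own in each panel, not starting at 0. Slc2a1 and Pgd are lowest and Pdp1 and Angptl4 highest on the 4 resolution arrays.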

How the data were processed

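Trizol extracts were amplified with the 3' IVT Pico kit, per the labels' protocols. The authors deposited linear-scale intensities, made with Affymetrix Expression Console, per the submitters' processing notes; the sources used here give no version, summary algorithm or genome build. The table holds 28846 probe sets, of which 19572 have 1 gene symbol and 9243, besides 31 controls, have none. The cluster with the highest mean stood for a symbol with several. Values were used as log2(value + 1). A gene was tested where at least 3 arrays lay above their own 40th percentile.

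A linear model with a mean for each group was fitted to all 11 arrays (limma 3.58.1, R 4.3.3), with 8 residual and 4.48 prior degrees of freedom and Benjamini-Hochberg adjustment over 12143 genes at a threshold of 0.05. Where the lower group's mean did not exceed its background by more than 1 SD, the fold was taken to the higher of that mean and the mean background, and is given as "at least". Errors are moderated standard errors (SE). The 3 groups share replicate numbers, but deviations of same-numbered arrays correlated at -0.12 to 0.09, so the numbers were not used as pairs. All 36 members are named, with up to 5 genes past the threshold of each further pathway list and markers of alveolar macrophages and other cells. The members, lists and tests were chosen with earlier results of these data known. The fit was tested on simulated data with 200 changed genes. In acute versus control it recovered 26.87% of 1.5-fold and 71.64% of 2-fold changes, with 9 false calls. The shares were 40.3% and 74.63% in resolution versus control, with 5 false calls. In resolution versus acute they were 28.36% and 86.57%, with 11 false calls. The simulated noise was normal and independent between genes. The data gave 29 calls in acute versus control, 2259 in resolution versus control and 1755 in resolution versus acute. Recovery under this adjustment depends on the number of changed genes, so these shares hold only for the simulated setting. The alternatives were other scalings, pseudocounts, filters and fits, the replicate block, and each array left out. Precision is limited by the number of arrays.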

Additional observations from a re-analysis of the deposited data

Results flagged for a closer look

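Among the 68 sets of 4 arrays examined (34 genes in the resolution and control groups), 8 held an array set apart from the other 3 by more than Dixon's critical share of the range, where chance gives about 1 in 20. Control replicate 2 had the lowest level of Hk3, 7.63 against 8.20 to 8.27, and the highest of the dim genes Egln3, 5.15 against 4.40 to 4.49, and P4ha2, 6.04 against 5.45 to 5.51. Gapdh was lowest in control replicate 3, at 15.82 against 15.84 on the other control arrays. Resolution replicate 4 had the lowest Epas1, 7.06 against 7.79 to 7.93, and the highest Bnip3, 7.43 against 6.85 to 6.88. Resolution replicate 2 had the lowest Pfkp, 14.21 against 14.57 to 14.64, and resolution replicate 3 the lowest Bnip3l, 14.19 against 14.40 to 14.44. None of these genes was past the threshold in any comparison. The high Epas1 level of control replicate 4, 10.62, did not meet the same criterion.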

How the results depend on the processing

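Of 20 alternative settings, 11 left out an array. The 8 members called in resolution versus control kept their direction under every setting that tested them, and 6 of them (Egln1, Hif1a, Ldha, Ndrg1, Pfkfb4 and Pgam1) kept their call; in resolution versus acute 4 of 7 did (Hif1a, Ldha, Ndrg1 and Pgam1). The counts of called members stayed at 0 in acute versus control, at 6 to 9 in resolution versus control and at 5 to 10 in resolution versus acute. The replicate block gave 0, 6 and 6 called members in the same order of comparisons; only 1 of 11 arrays correlated best with an array of its own number. Among all genes, acute versus control had 29 calls, 16 with only the compared groups in the fit, 54 with array weights and 6 to 29 with an array left out, and resolution versus acute had 1755 calls, 1069 to 1837 with an array left out. The acute calls comprised 23 higher genes and 6 lower ones, with quantile normalization 29 and 3, and at a common median 25 and 3. Those of resolution versus control were 1166 higher and 1093 lower, 1001 and 1259 with quantile normalization and 893 and 1198 at a common median. The resolution versus acute calls split into 943 and 812, 685 and 1151 after quantile normalization and 676 and 987 at a common median. Pkm in acute versus control, -0.02, changed sign after quantile normalization (0.0158) and at a common median (0.0053), and was -0.0692 to 0.0343 with an array left out. Ankrd37 in the same comparison was -0.0267 to 0.128, and Epas1 in resolution versus acute -0.276 to 0.0263. None of these 3 passed the threshold under any setting, and the cause of the changes was not tested.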
